A study of Mus musculus with 9 samples.

Results

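The genes described here are 32 genes of fatty acid oxidation, with the enzymes that activate fatty acids and a few regulators. They were measured in the mouse yolk sac at embryonic day 9.5 in embryos with and without Rnh1, the gene of the ribonuclease inhibitor. They were chosen because, as a class, they were lower in the knockout, so the values of KO against WT, and of KO against HET with the same KO arrays, are given as a description with no test. A member was measured where a probe set named it and no other gene, which held for 30 of the 32 genes out of 19933 genes on the array. Of these, 28 passed the filter on dim signals that left 13207 genes for testing, 27 of them on all 9 arrays and Pdk4 on 5. Acaa1b passed that filter on 0 arrays and Ppara on 1, and both are called dim below. Acsl1 was not named in the probe table and Acsl3 shared its probe set with another gene.

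The study compared 3 arrays each of wild-type (WT, Rnh1 +/+), heterozygous (HET, Rnh1+/-) and homozygous knockout (KO, Rnh1-/-) yolk sac, 1 array per sample, all untreated and on a mixed SV 129/C57BL/6 background. The labels name no Cre and no tissue-specific deletion, and they do not say whether samples of a genotype came from separate embryos, so p-values measure only the spread between these samples. The number of arrays limits the precision. Values are log2 signals, and a log2 difference of -1 means a signal at 50% of the other.

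Fatty acids are activated to acyl-CoA, carried into mitochondria as carnitine esters and shortened in the β-oxidation spiral, whose electrons pass through the electron transfer flavoprotein to the respiratory chain. Peroxisomes run a parallel spiral with their own enzymes for very long, branched and dicarboxylic chains, and pass shortened chains on as carnitine esters. Many genes of both sets are known targets of PPARα and its coactivator PGC-1α. The visceral endoderm of the yolk sac takes up and processes maternal lipid for the embryo.

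Rnh1 itself was at 10.39, 10.42 and 10.32 on the WT arrays, with HET at 9.75, 9.75 and 9.77 and KO at 6.28, 6.78 and 6.87, in the order of the labels (log2 difference KO minus WT -3.73, SE 0.13, limma adjusted p = 4.61e-06). Array medians lay between 7.07 and 7.20. Arrays of the same genotype correlated with r of 0.992 to 0.998 across probe sets, and KO arrays with WT or HET arrays with r of 0.987 to 0.994. The sex-linked transcripts were not balanced over genotypes: Xist was at 10.56 to 11.67 on WT 2, WT 3, HET 2 and all 3 KO arrays and at 5.15 to 5.76 on WT 1, HET 1 and HET 3, while the Y-linked Eif2s3y was lowest on WT 3 (4.34) and KO 3 (4.41). WT 2, HET 2, KO 1 and KO 2 carried both, with Eif2s3y at 7.27 to 8.15 beside their high Xist, so these arrays cannot be read as of 1 sex, and the labels do not say whether samples were pooled. WT 2 and KO 1 stood apart from their groups in earlier results of these data. For the members, WT 2 was the highest WT array in 25 of 28, against 57.5% of all genes tested, and results are therefore also given without these arrays.

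Start regions of 4 members are printed first, because Hadha and Hadhb encode the subunits of 1 enzyme from a shared start region, because Ehhadh and Ppargc1a had the lowest values relative to WT, and because Acadm held the nuclear receptor motif AAGGTCA. All are the 250 bases before the RefSeq start in GRCm38.p6, read 5′ to 3′ on the strand of the gene. In the windows of Hadhb (chr5:30155003-30155252, plus strand), Ehhadh (chr16:21787835-21788084, minus strand) and Ppargc1a (chr5:51567726-51567975, minus strand) capitals mark each CG. In the window of Acadm (chr3:153944644-153944893, minus strand) they mark the match to AAGGTCA, which lies on the opposite strand 249 bases before the start and reads TGACCTT on the strand printed.
Hadhb: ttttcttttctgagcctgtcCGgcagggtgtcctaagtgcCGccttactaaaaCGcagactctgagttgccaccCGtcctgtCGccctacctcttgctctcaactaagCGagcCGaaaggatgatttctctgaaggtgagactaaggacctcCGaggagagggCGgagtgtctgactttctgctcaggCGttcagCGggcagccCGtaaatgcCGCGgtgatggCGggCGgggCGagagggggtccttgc
Ehhadh: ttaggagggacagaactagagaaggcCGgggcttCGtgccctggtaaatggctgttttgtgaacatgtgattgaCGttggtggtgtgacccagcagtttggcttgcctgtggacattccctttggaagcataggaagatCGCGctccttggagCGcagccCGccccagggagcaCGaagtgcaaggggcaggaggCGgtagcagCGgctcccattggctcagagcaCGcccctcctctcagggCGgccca
Ppargc1a: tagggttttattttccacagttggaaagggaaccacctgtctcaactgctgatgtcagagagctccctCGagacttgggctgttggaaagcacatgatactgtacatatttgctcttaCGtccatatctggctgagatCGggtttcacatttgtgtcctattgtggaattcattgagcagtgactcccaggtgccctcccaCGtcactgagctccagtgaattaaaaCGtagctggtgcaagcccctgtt
Acadm: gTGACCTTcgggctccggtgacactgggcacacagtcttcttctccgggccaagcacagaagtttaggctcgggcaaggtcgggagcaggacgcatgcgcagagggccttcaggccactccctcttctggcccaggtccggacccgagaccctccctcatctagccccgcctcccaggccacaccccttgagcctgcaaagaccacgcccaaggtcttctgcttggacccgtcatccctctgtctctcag

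The starts of Hadha and Hadhb lie 273 bases apart on chromosome 5 and point away from each other, so the window printed for Hadhb lies wholly between both starts. That window held 17 CG dinucleotides at a GC content of 58.8%, the window of Ehhadh 12 at 60.4% and that of Ppargc1a 5 at 48%. Windows from 250 bases before to 50 bases after the start were found by symbol for 28 of the 32 members (not Acaa2, Hsd17b4, Decr1 and Crat) and for 10532 of the genes tested, and motifs were searched on both strands. Acadm was the 1 member with AAGGTCA, which was held by 4.04% of the genes tested. A direct repeat, AGGTCA followed after any 1 base by AGGTCA again, which overlaps the former motif where an A precedes it, was found in 0 of the 28 members and in 0.057% of genes. GCGCA followed directly by TGCGC, a palindrome bound by the factor NRF1, was found in Etfdh, 128 bases before the start, and in Ppara, 31 bases before it, against 2.1% of genes. CCAAT was held by 14 of the 28 members and by 41.9% of genes. A CpG-rich window (GC above 50% and a ratio of observed to expected CG above 0.6) was held by 14 of the 28 members and by 69.6% of genes. Ehhadh, Ppargc1a and Acadm were among the members without one, and Hadha and Hadhb had one. These matches describe the letters of the windows only.

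In KO yolk sac 27 of the 28 tested members had a lower mean than in WT, where 50.8% of all genes did. The median difference was -0.38, a signal at 76.7% of WT, and differences ran from -1.06 for Ehhadh to 0.24 for Pdk4. Over all genes tested the median was -0.00, the 25th percentile -0.18 and the 5th percentile -0.51. Of the members 21 lay at or below that 25th percentile and 7 at or below the 5th. All 3 KO arrays lay below all 3 WT arrays in 22 members, a pattern held by 24.7% of all genes, and below all 6 WT and HET arrays in 21, held by 18.7%. The threshold of the fit (adjusted p under 0.05) was passed by 17 members with lower and 0 with higher signal in KO, beside 15.2% and 8.27% of all genes, and since the members were chosen on this contrast nothing is read from that count. The 11 tested members not past the threshold were Acsl5, Cpt1a, Acadvl, Acadl, Acads, Eci1, Etfa, Acaa1a, Eci2, Crat and Pdk4. Against HET the fit gave 18 members lower in KO and 0 higher, beside 13.6% and 8.17% of all genes. The count of 17 was 14 without WT 2 and 16 without WT 2 and KO 1. The standard errors of the members ran from 0.05 to 0.19. In bulk tissue, fewer cells of a type and less RNA per cell cannot be told apart.

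**Figure D1:**
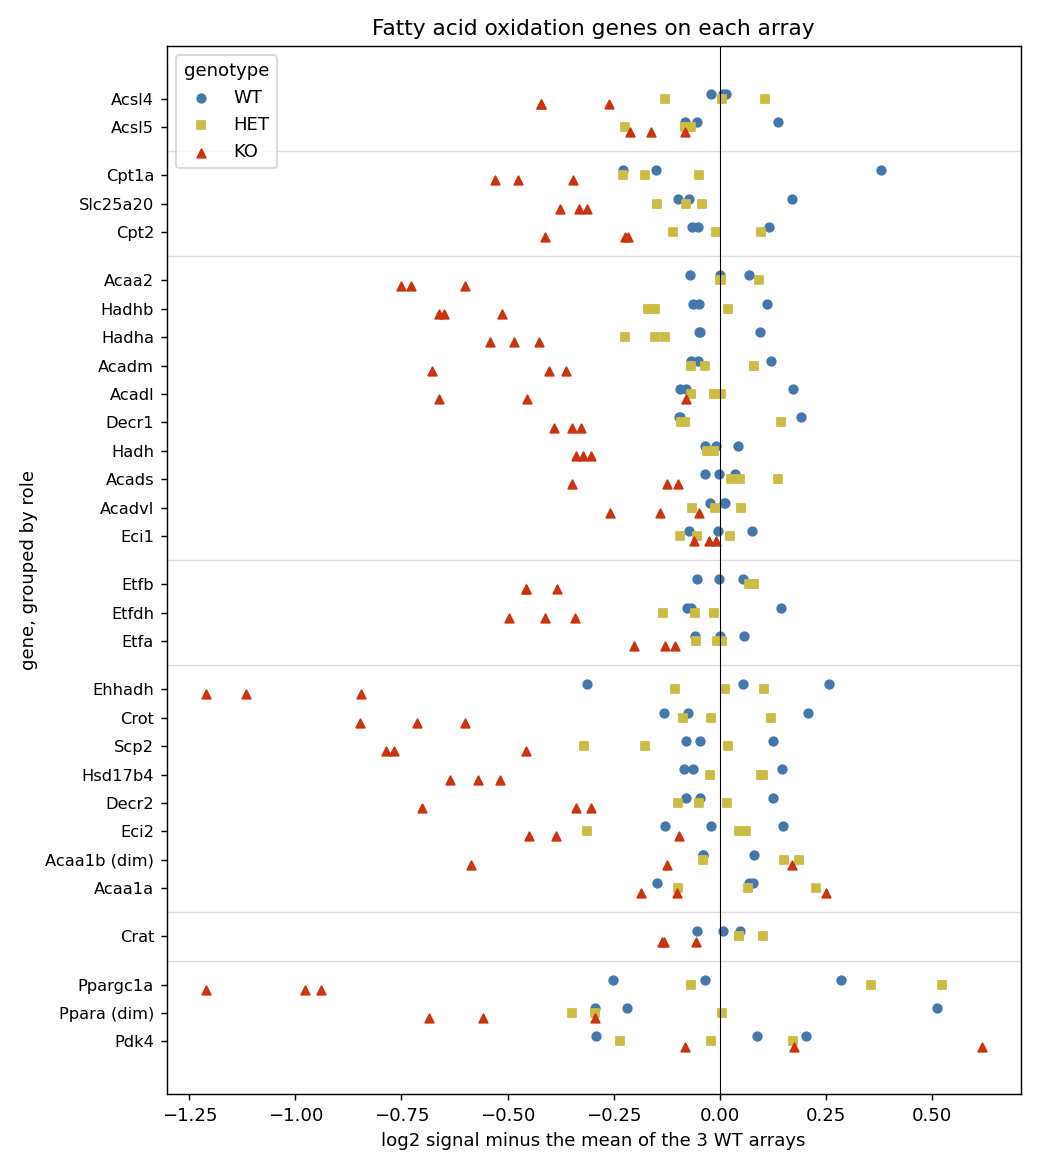
Log2 signal of each of the 30 measured members on each of the 9 arrays, minus the mean of the gene's 3 WT arrays (horizontal axis, log2), with genes grouped by role and ordered by their difference (vertical axis). Circles are WT, squares HET and triangles KO arrays, and KO arrays lie to the left of all WT arrays in 22 of the 28 tested members, farthest for Ehhadh and Ppargc1a.

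Of the enzymes that activate fatty acids, Acsl4, an acyl-CoA synthetase with a preference for arachidonate, was at 10.21, 10.25 and 10.24 on the WT arrays, with HET at 10.24, 10.34 and 10.11 and KO at 9.81, 9.81 and 9.97. The KO arrays lay below all others, with a difference of -0.37 (SE 0.07), 77.5% of WT. Acsl5, a synthetase found on mitochondria and endoplasmic reticulum, was at 9.30, 9.51 and 9.32 in WT, with HET at 9.30, 9.31 and 9.15 and KO at 9.30, 9.22 and 9.17. Its groups overlapped, the difference was -0.15 (SE 0.08), and WT 1, HET 1 and KO 1 carried the identical deposited value. Without WT 2 its difference was -0.08. Repeated values of this kind occurred in 5 of the measured members (Acsl5, Acadl, Acadm and the dim Acaa1b and Ppara). Among tested genes they occurred in 3 of the 28 members and in 36.4% of all genes.

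All 3 genes of the carnitine shuttle had KO arrays below all WT and HET arrays. Cpt1a encodes the carnitine palmitoyltransferase of the outer mitochondrial membrane, the controlled entry step of the pathway. It was at 7.71, 8.24 and 7.63 in WT, with HET at 7.81, 7.68 and 7.63 and KO at 7.33, 7.51 and 7.39. Its difference of -0.45 (SE 0.14), 73.2% of WT, leaned on WT 2 and was -0.26 without that array. Cpt2, which turns the carnitine ester back to acyl-CoA inside the mitochondrion, was at 10.65, 10.82 and 10.64 in WT, with HET at 10.80, 10.69 and 10.59 and KO at 10.49, 10.48 and 10.29. The Cpt2 difference was -0.28 (SE 0.08), the smallest of the shuttle. Slc25a20, the carrier that exchanges carnitine and its esters across the inner membrane, was 8.90 ± 0.15 (SD, n = 3) in WT and 8.56 ± 0.03 in KO, a difference of -0.34 (SE 0.08).

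In the mitochondrial spiral the 10 enzymes had differences from -0.69 to -0.03, and KO arrays lay below all WT arrays in 8 of them. The lowest value relative to WT belonged to Acaa2, the medium-chain thiolase that cleaves off acetyl-CoA in the last step. It was at 11.40, 11.47 and 11.33 in WT, with HET at 11.49, 11.40 and 11.40 and KO at 10.65, 10.80 and 10.67. The KO arrays lay well below all WT and HET arrays, with a difference from WT of -0.69 (SE 0.07), 61.8% of WT. Hadhb and Hadha, the β and α subunits of the trifunctional protein that handles long chains, came next. Hadhb was at 10.15, 10.32 and 10.16 in WT, with HET at 10.23, 10.04 and 10.06 and KO at 9.56, 9.55 and 9.70, a difference of -0.61 (SE 0.08). Another Hadhb probe set gave -0.60 (10.06 ± 0.10 in WT, 9.46 ± 0.08 in KO). Both Hadhb probe sets ran in parallel over the arrays, and whether their probes share sequence was not tested. Hadha was at 10.96, 11.10 and 10.96 in WT, with HET at 10.88, 10.86 and 10.79 and KO at 10.53, 10.47 and 10.58, a difference of -0.48 (SE 0.06). In Hadha the 3 genotypes did not overlap, and HET arrays lay between WT and KO arrays. Acadm, the medium-chain acyl-CoA dehydrogenase, was at 10.83, 11.01 and 10.82 in WT, with HET at 10.97, 10.82 and 10.85 and KO at 10.21, 10.48 and 10.52, a difference of -0.48 (SE 0.09), 71.6% of WT.

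The other chain-length dehydrogenases lay closer to WT. Acadl (long chain) went from 9.25 ± 0.15 in WT to 8.85 ± 0.29 in KO, a difference of -0.40 (SE 0.14). In Acadl KO 1 equalled WT 1 at 9.17 while KO 2 and KO 3 were at 8.79 and 8.58, and the difference was -0.56 without KO 1 and -0.27 without KO 3. Acadvl (very long chain) went from 8.36 ± 0.02 to 8.21 ± 0.10 and Acads (short chain) from 10.36 ± 0.03 to 10.17 ± 0.14. Their differences were -0.15 and -0.19 (SE 0.07 each), and in both KO arrays lay below all WT arrays. Without KO 1 these differences were -0.10 and -0.11. They fell short of the threshold in the fit, as did Acadl and Eci1. Hadh, the short-chain hydroxyacyl-CoA dehydrogenase, went from 12.35 ± 0.04 to 12.03 ± 0.02, a difference of -0.32 (SE 0.05). Decr1, the dienoyl-CoA reductase for unsaturated chains, went from 9.08 ± 0.17 to 8.72 ± 0.03, a difference of -0.36 (SE 0.09). Eci1, the enoyl-CoA isomerase that moves double bonds, was at 9.39, 9.31 and 9.24 in WT, with HET at 9.26, 9.22 and 9.33 and KO at 9.30, 9.29 and 9.25. Its groups overlapped throughout, with a difference of -0.03 (SE 0.06), and its sign turned in 3 of 21 alternative settings.

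The electron transfer flavoprotein takes the electrons of the acyl-CoA dehydrogenases, and its genes differed in size. Etfb, the β subunit, was at 11.69, 11.74 and 11.64 in WT, with HET at 11.77, 11.76 and 11.77 and KO at 11.23, 11.31 and 11.23, a difference of -0.43 (SE 0.05), 74.1% of WT. Etfa, the α subunit, was at 9.54, 9.60 and 9.48 in WT, with HET at 9.55, 9.53 and 9.49 and KO at 9.41, 9.44 and 9.34, a difference of -0.15 (SE 0.06). In both subunits KO arrays lay below all others, and Etfa did not pass the threshold. Etfdh, which hands the electrons on to ubiquinone, went from 9.67 ± 0.13 to 9.26 ± 0.08, a difference of -0.42 (SE 0.08).

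Among the 7 tested peroxisomal genes, 5 had KO arrays below all WT and HET arrays. Ehhadh, the bifunctional hydratase and dehydrogenase of the peroxisomal spiral, had the lowest value relative to WT of all members. It was at 10.17, 10.37 and 9.80 in WT, with HET at 10.22, 10.13 and 10.01 and KO at 8.90, 9.27 and 9.0, a difference of -1.06 (SE 0.15), 48.1% of WT. Crot, which makes carnitine esters of medium-chain products for export from peroxisomes, was at 10.67, 10.95 and 10.61 in WT, with HET at 10.87, 10.73 and 10.66 and KO at 10.14, 10.03 and 9.90, a difference of -0.72 (SE 0.10), 60.7% of WT. Scp2, which encodes a sterol carrier and a thiolase for branched chains, was at 8.49, 8.67 and 8.46 in WT, with HET at 8.56, 8.36 and 8.22 and KO at 8.08, 7.75 and 7.77, a difference of -0.67 (SE 0.12). Hsd17b4, the D-bifunctional protein that handles branched chains and bile acid precursors, was at 10.14, 10.34 and 10.12 in WT, with HET at 10.30, 10.30 and 10.18 and KO at 9.56, 9.68 and 9.63, a difference of -0.57 (SE 0.08). These 4 genes and Decr2 separated KO from the other arrays, and WT and HET arrays overlapped in each.

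Decr2, the peroxisomal dienoyl-CoA reductase, went from 10.49 ± 0.11 to 10.05 ± 0.22, with KO 1 at 9.79 below KO 2 and KO 3 at 10.19 and 10.16. Its difference was -0.45 (SE 0.11), or -0.26 without WT 2 and KO 1. Eci2, an enoyl-CoA isomerase found in peroxisomes and mitochondria, went from 8.57 ± 0.14 to 8.26 ± 0.19, a difference of -0.31 (SE 0.13), and KO 1 at 8.48 lay within the WT range. Acaa1a, the peroxisomal thiolase, was at 8.75, 8.74 and 8.52 in WT, with HET at 8.90, 8.57 and 8.74 and KO at 8.48, 8.92 and 8.57. Its KO arrays held both the lowest and the highest of the 9 values, the difference was -0.01 (SE 0.13), and 12 of 21 alternative settings kept its sign. Its close copy Acaa1b was dim, at 5.39 ± 0.07 in WT and 5.21 ± 0.38 in KO. Because the copies are nearly alike, signal could be shared between their probes, which was not tested. Crat, the carnitine acetyltransferase of both organelles, was at 9.87, 9.81 and 9.91 in WT, with HET at 9.91, 9.96 and 9.91 and KO at 9.73, 9.81 and 9.73, a difference of -0.11 (SE 0.05). Its highest KO array and its lowest WT array were only just apart, and the difference was -0.03 after quantile normalization and -0.17 with arrays centred on their medians.

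Of the regulators, Ppargc1a, which encodes PGC-1α, was at 8.33, 8.65 and 8.11 in WT, with HET at 8.88, 8.72 and 8.29 and KO at 7.38, 7.42 and 7.15. KO arrays lay below all others, with a difference of -1.04 (SE 0.17), 48.5% of WT. A dimmer Ppargc1a probe set was above the filter on 4 arrays only, WT 1, WT 2, HET 1 and HET 2. Its KO arrays (6.25, 5.92 and 5.65) all lay under the filter, so no difference is given for that probe set. Ppara, the lipid-sensing nuclear receptor, was at 6.20, 7.01 and 6.28 in WT, with HET at 6.15, 6.20 and 6.50 and KO at 5.81, 6.20 and 5.94. It passed the filter on 1 array, and no difference is given for it. Pdk4, the kinase that shuts pyruvate dehydrogenase and spares glucose, was at 6.57, 6.69 and 6.19 in WT, with HET at 6.65, 6.46 and 6.25 and KO at 7.10, 6.66 and 6.40. The groups overlapped, and its difference of 0.24 (SE 0.19) was 0.05 without KO 1 and 0.40 without KO 3.

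Mitochondrial and peroxisomal steps were then set side by side. Counting the carnitine shuttle, the spiral and electron transfer as mitochondrial, the 16 mitochondrial genes had a median difference of -0.38 (77.0% of WT), with 14 genes whose KO arrays lay below all WT arrays and 10 past the threshold. The 7 tested peroxisomal genes had a median of -0.57 (67.2% of WT), with 5 separated genes and 5 past the threshold. Among all genes tested 24.7% were separated in this way and 15.2% were past the threshold with lower signal in KO. Nothing is read from the class counts, since the members were chosen on this contrast. The peroxisomal range of -1.06 to -0.01 enclosed the mitochondrial range of -0.69 to -0.03. Per array, the mitochondrial genes had a median relative to the mean of WT of -0.05, 0.10 and -0.07 on the WT arrays, with HET at -0.00, -0.07 and -0.06 and KO at -0.35, -0.36 and -0.39. For the peroxisomal genes it was -0.05, 0.15 and -0.13 in WT, with HET at 0.10, -0.02 and -0.09 and KO at -0.60, -0.52 and -0.57. Peroxisomal genes were lower than mitochondrial genes by 0.25, 0.15 and 0.18 on the KO arrays, while the difference of the class medians lay between -0.06 and 0.10 on the other 6 arrays. The difference between the classes' medians of KO minus WT was -0.20. It was -0.13 with Crat counted as peroxisomal, -0.13 with the dim Acaa1b included and -0.27 with Eci2 counted as mitochondrial. Without WT 2 the mitochondrial median was -0.28 and without WT 2 and KO 1 the medians were -0.29 and -0.47. With Eif2s3y as a covariate they were -0.35 and -0.57. Since the members were chosen for their level in KO, neither class nor their difference was tested.

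**Figure D2:**
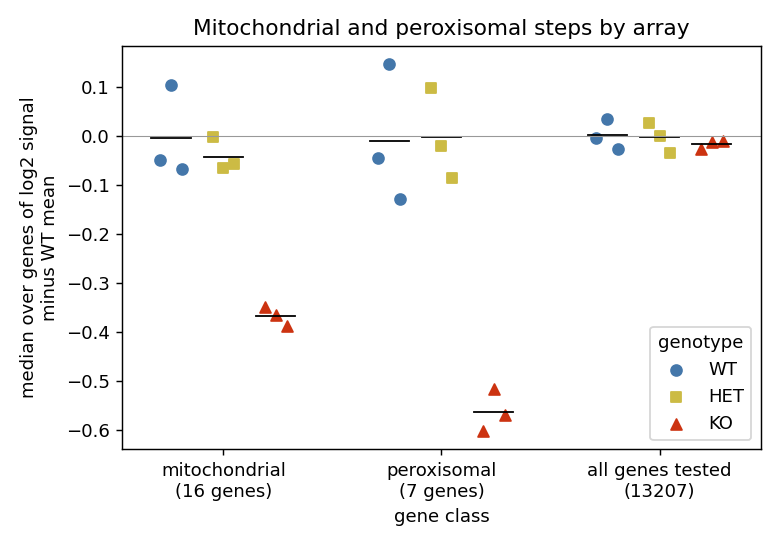
Median over the genes of a class of the log2 signal minus the gene's WT mean (vertical axis) on each array, for 16 mitochondrial genes, 7 peroxisomal genes and all 13207 genes tested (horizontal axis). Points are arrays coloured by genotype and black lines are genotype means, and the KO arrays lie at -0.35 to -0.39 for mitochondrial and -0.52 to -0.60 for peroxisomal genes.

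HET against WT was not used in choosing the members, and here the limma fit called 0 of 28 members, as it called 0% of all genes, and 0 members under each of the alternatives run. An unadjusted p under 0.05 was found for 1 member, Hadha, and for 2.48% of all genes. HET minus WT had a median of -0.01 over the members and ran from -0.17 for Hadha to 0.27 for Ppargc1a, with limma adjusted p from 0.939 to 0.999. Hadha was lower in HET by 0.17 (95% interval -0.31 to -0.03, unadjusted p = 0.0254 in the limma fit), and its HET arrays lay below all WT arrays, a pattern held by 5.98% of all genes. In Etfb the HET arrays lay above all WT arrays, as they did in 4.25% of genes, with a difference of 0.08 (95% interval -0.04 to 0.20). For Ppargc1a the interval was -0.12 to 0.66. On either side of the difference the 95% intervals reached out by 0.11 to 0.43, so small differences were not detectable with these arrays.

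**Figure D3:**
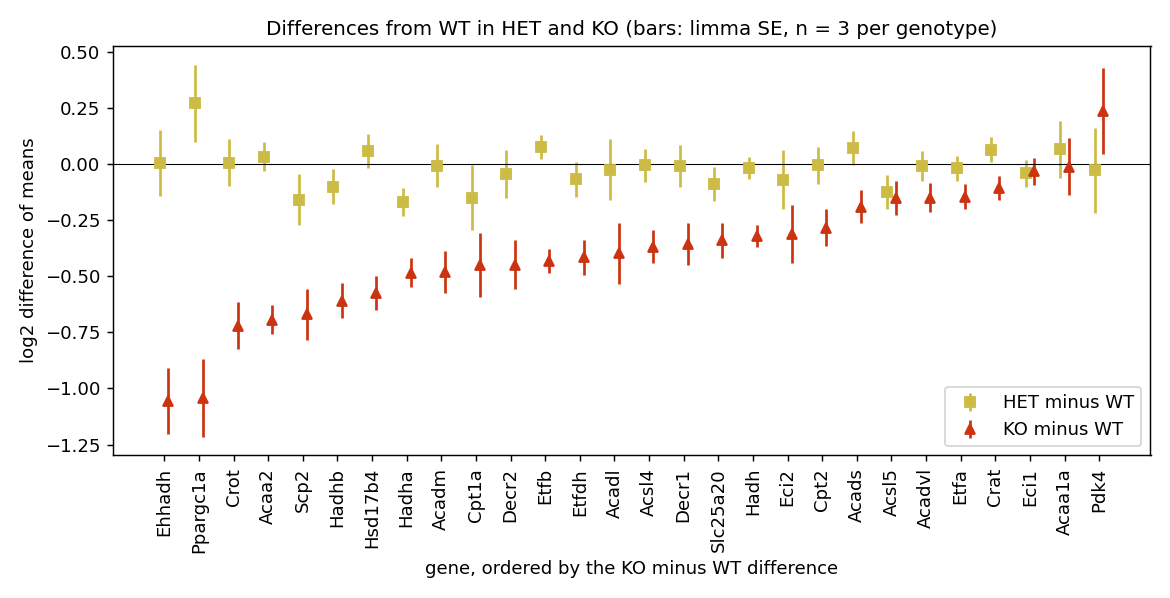
Log2 difference from WT of the HET mean (squares) and the KO mean (triangles) for each of the 28 tested members, ordered by the KO difference, with bars of 1 limma standard error (n = 3 arrays per genotype). HET differences lie between -0.17 and 0.27 on both sides of 0, and KO differences run from -1.06 to 0.24.

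Genes of the same and neighbouring pathways that are no members were counted by the fit on KO against WT. The lists were written with earlier results of these data known, so their counts are not independent evidence of a direction. Of 98 tested genes, 39 fell and 4 rose in KO, beside 15.2% lower and 8.27% higher among all genes tested. Their median difference was -0.19. The count of genes that fell was 26 without WT 1 and also 26 without WT 2. The count of genes that rose was 2 without WT 1, WT 3, KO 2 or any HET array.

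Of 15 other mitochondrial genes 8 fell and 0 rose, with a median of -0.32. The 3 with the smallest p belong to the propionate branch, which handles the last carbons of odd and branched chains. Pcca, a subunit of propionyl-CoA carboxylase, was 9.01 ± 0.11 (SD, n = 3) in WT and 8.33 ± 0.11 in KO (-0.68, SE 0.08, limma adjusted p = 0.00166). Mmut, methylmalonyl-CoA mutase, fell by 0.63 and Pccb, the other carboxylase subunit, by 0.46 (limma adjusted p = 0.00261 and 0.00468).

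Of 18 other peroxisomal genes 13 fell and 0 rose, with a median of -0.43. Slc27a2, which imports and activates very long chains, was at 9.87, 10.51 and 9.80 in WT, with HET at 10.53, 10.01 and 10.07 and KO at 8.66, 8.61 and 8.21. Its KO arrays lay below all others (-1.57, SE 0.21, 33.7% of WT, limma adjusted p = 0.00213). Pecr, a trans-2-enoyl-CoA reductase, and Acad11, an acyl-CoA dehydrogenase, fell by 0.78 and 0.79 (SE 0.09 each). Of 13 genes of peroxisome assembly 5 fell and 0 rose, with a median of -0.19. Pex19, a chaperone of peroxisomal membrane proteins, fell by 0.40 and Pex7, an import receptor for matrix enzymes, by 0.61 (SE 0.07 and 0.12). Pex14, part of the import pore, fell by 0.26, a call lost under 5 of 21 alternatives (limma adjusted p up to 0.100), among them leaving out WT 1, WT 2, KO 2 or KO 3. Pex3 and Pex10, the remaining genes that fell, were named after their values were seen, with differences of -0.27 and -0.37.

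Of 6 tested genes of ketone body and acetate use 4 fell and 0 rose. Acss1, the mitochondrial acetyl-CoA synthetase, was at 10.52, 10.54 and 10.47 in WT, with HET at 10.52, 10.55 and 10.58 and KO at 9.37, 9.33 and 9.22 (-1.20, SE 0.06, 43.5% of WT, limma adjusted p = 3.85e-05). Its WT and HET arrays lay within a narrow band well above the KO arrays. Acat1, the mitochondrial acetoacetyl-CoA thiolase, fell by 0.93 and Acss2, the acetyl-CoA synthetase of cytosol and nucleus, by 0.54 (SE 0.08 each). Bdh1, hydroxybutyrate dehydrogenase, was the other gene that fell (-0.34) and was named after its values were seen.

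Of 24 other regulators 4 fell and 2 rose, with a median of -0.04. Both counts were near the shares of all genes tested, 15.2% lower and 8.27% higher, so nothing is read about the list as a whole. Prkaa2 and Prkaa1, the catalytic subunits of the energy sensor AMPK, fell by 0.86 (SE 0.08, limma adjusted p = 0.00102) and 0.30 (SE 0.06, limma adjusted p = 0.0093). Creb3l3, a membrane-bound factor of lipid metabolism, fell by 0.50 (SE 0.11). Named after their values were seen, Pdk2 was the other gene that fell (-0.28), and Rxrb (0.40), a partner of nuclear receptors, and Pprc1 (0.32), a relative of PGC-1α, were those that rose. Ppard, the PPAR form closest in role to PPARα in many tissues, was at 8.94, 8.88 and 8.82 in WT and 8.94, 9.27 and 9.83 in KO and did not pass (0.46, SE 0.18, limma adjusted p = 0.0935). The KO arrays of Ppard were far apart, with KO 3 the highest, and without KO 1 it passed at a difference of 0.67 (limma adjusted p = 0.0135). Its call was unchanged under 18 of 21 alternatives, with limma adjusted p of 0.00961 to 0.188 over all of them. Hnf4a, a nuclear receptor of the visceral endoderm, did not pass (-0.17, SE 0.09, limma adjusted p = 0.199).

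Of 11 tested PPARα targets outside oxidation 4 fell and 0 rose, with a median of -0.24. Aqp7, a glycerol channel, fell by 0.38, Plin2, a lipid droplet coat protein, by 0.35 and Gpd1, glycerol-3-phosphate dehydrogenase, by 0.53. The call for Gpd1 was lost without WT 2 and KO 1 (limma adjusted p = 0.061). Vnn1 (-0.65), named after its values were seen, was the other gene that fell. Of 11 genes of fatty acid synthesis 1 fell and 2 rose, beside 15.2% and 8.27% of all genes tested, with a median of 0.03. Fasn, the fatty acid synthase, was at 10.63, 10.73 and 10.69 in WT and 11.01, 11.02 and 11.22 in KO and rose by 0.40 (SE 0.08, limma adjusted p = 0.00753). Elovl1, an elongase of long chains, fell by 0.27 and Mlxipl, a carbohydrate-responsive factor, rose by 0.35. The call for Elovl1 was lost under 5 of 21 alternatives (limma adjusted p up to 0.0829), among them leaving out WT 1, WT 2, KO 2 or KO 3. That for Mlxipl was lost under 10 (up to 0.148), among them leaving out WT 1, WT 3, KO 1, KO 2 or any HET array.

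**Figure D4:**
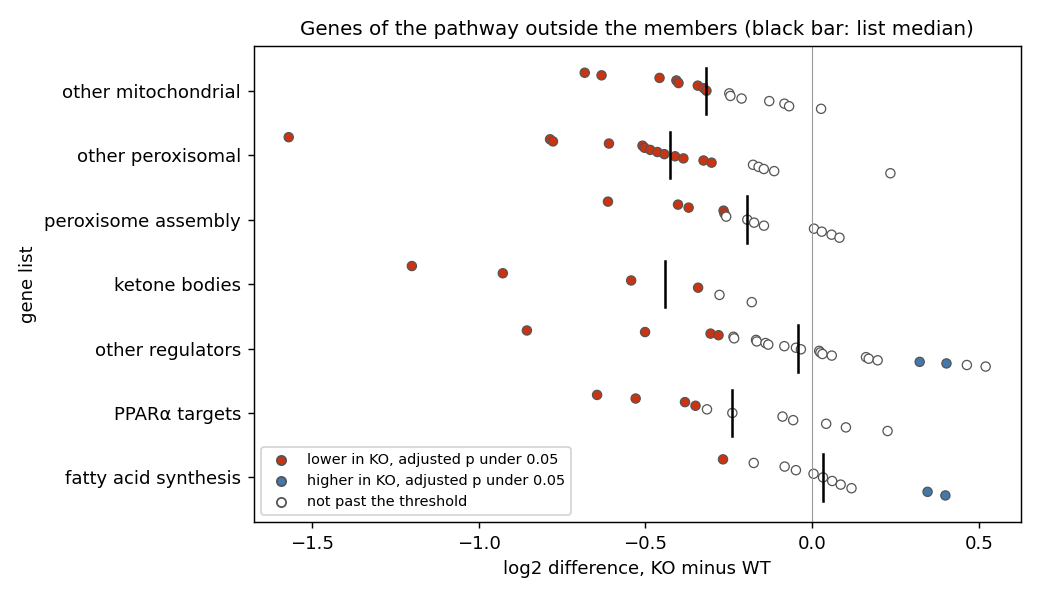
Log2 difference of KO minus WT (horizontal axis) of each tested gene of the 7 pathway lists outside the members (vertical axis), with filled points for genes past an adjusted p of 0.05 in limma and black bars for list medians. The list medians lie between -0.44 and 0.03, lowest for ketone body and acetate use and for other peroxisomal genes.

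Markers of the cell types a yolk sac sample can hold were counted by the limma fit of KO against WT. Among all genes tested 15.2% fell and 8.27% rose. Of 29 visceral endoderm markers 11 fell and 1 (Ihh, named after its values were seen) rose, with a median of -0.18. Their mean signal per array was 11.62 to 11.72 in WT, 11.60 to 11.75 in HET and 11.26 to 11.46 in KO, so KO arrays were below all others here as for the members. Of 19 erythroid markers 12 fell and 0 rose, with mean signals of 10.18 to 10.41, 10.06 to 10.44 and 9.55 to 10.04. Of 13 extraembryonic mesoderm markers 5 rose (Hand1, Hand2, Twist1, Foxf1 and Tbx20) and 1 fell (Postn), and of 15 endothelial markers 3 rose (Cldn5, Robo4 and Egfl7) and 2 fell (Flt1 and Tek). Of 6 tested macrophage markers 3 fell (Csf1r, Mrc1 and Fcgr3). Names in these lists were taken after the values were seen. The labels state that maternal tissue was left out, and 0 of 8 tested decidua and 0 of 6 tested trophoblast markers passed in the limma fit of KO against WT (1 and 1 at an unadjusted p under 0.05). Against HET the decidua marker Prl8a2 was higher in KO (2.69, limma adjusted p = 0.043), and 3 decidua markers had an unadjusted p under 0.05 for HET against WT in limma. Decidua markers had mean signals of 8.24 to 8.88 in WT, 7.57 to 8.21 in HET and 8.41 to 8.75 in KO. For trophoblast markers these were 8.05 to 8.18, 7.10 to 8.46 and 8.14 to 9.12. Among the dim markers were Pgr, Hoxa11, Tpbpa and Elf5, though Hoxa11 (6.71), Tpbpa (7.84) and Elf5 (7.30) were above the filter on KO 3. Between arrays Prl8a2 ran from 6.50 to 11.34, Prl7a1 from 5.12 to 10.70 and Prl4a1 from 6.14 to 10.31. Plac1 (11.06), Syna (9.83), Ascl2 (8.91) and Dio3 (8.91) were highest on KO 3, while Prl4a1, Prl7a1 and Cdx2 were highest on other arrays. The amount of decidua or trophoblast per array was not tested. The part of these markers in the members' values was not tested.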

How the data were processed

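Gene expression was measured on 9 Affymetrix whole-transcript gene arrays, 3 each of WT, HET and KO yolk sac. Each probe set has a deposited log2 signal. The authors used RMA and Affymetrix Expression Console (version 1.2.1.20), as the submitters' processing notes give them. RMA normalizes between arrays and compresses large differences. For the array, a genome build is not given in the sources used. The members and gene lists were chosen with earlier results of these data known.

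Probe sets naming 1 gene symbol (21780 of 28350) were kept, with the highest mean probe set per gene. A gene was tested if at least 3 of 9 arrays put it above their own 40th percentile. A linear model of all 9 arrays was fitted with limma 3.58.1 (R 4.3.3, lmFit and eBayes), and p-values were adjusted by Benjamini-Hochberg over 13207 genes, with a threshold of 0.05. The fit was tested on simulated data. Members given by array are, per role, those with the largest and smallest difference, all regulators, and the 4 largest falls of the mitochondrial spiral and of the peroxisomal genes. From each pathway list the 3 genes with the smallest p were named, with Ppard, Hnf4a and Rnh1, and 1 further gene is not reported here. Start regions come from RefSeq (GRCm38.p6), matched by symbol. Alternatives were other filters, probe set summaries, normalizations, priors, array weights, samples, a replicate block and Eif2s3y as a covariate. Protein sequences were not used here.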

Additional observations from a re-analysis of the deposited data

How the results depend on the processing

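The difference of KO minus WT kept its sign in each alternative that tested the gene for 26 of the 28 tested members, and Eci1 and Acaa1a were the exceptions. The count of members below WT past the threshold, 17, ran from 14 (without WT 2) to 21 (arrays centred on their medians). The median of the mitochondrial steps ran from -0.42 to -0.28 when each array was left out. The difference between class medians, -0.20, became -0.13 with no filter or with Crat as peroxisomal and -0.27 with Eci2 as mitochondrial. Pathway genes outside the members that rose, 4, became 2 with no filter, with arrays centred or with only the 2 genotypes compared, and 8 with array weights, and ran from 2 to 5 when each array was left out. Genes called for KO against WT, 3101 (64.8% lower in KO), became 5753 with array weights (a fit whose weights stopped short of convergence, as for each count under array weights here) and ran from 1669 (without WT 1) to 3842 (without KO 1), and 1763 without WT 2. The share lower was 81.4% with arrays centred on their medians, 56.9% after quantile normalization and 58.4% after cyclic loess. Genes called for HET against WT, 0, became 6 with array weights and 4 without WT 2 and KO 1, and ran from 0 to 5 when each array was left out. Genes called for KO against HET, 2875, became 1739 with Eif2s3y as a covariate and 3965 with array weights. That count ran from 1508 to 3149 when each array was left out. The cause of these shifts was not tested. With the replicate block 3131 genes were called for KO against WT, with 19 members and 40 pathway genes lower. The numbers share no stated source. Correlations between arrays of different genotypes were taken on deviations from the genotype mean of each gene. They ran from -0.26 to 0.42 (median 0.18) for arrays of the same number and from -0.59 to 0.41 (median -0.03) for different numbers. Of the WT and KO arrays, 2 of 6 were closest to their own number.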

Other observations

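The probe set that names Acsl3, an acyl-CoA synthetase of lipid droplets, also names Utp14b, so it was left out of the members' values. It was at 9.60, 9.81 and 9.54 in WT, with HET at 9.61, 9.72 and 9.48 and KO at 9.56, 9.49 and 9.61. The genotypes overlapped, with a difference of KO minus WT of -0.10, and the signal cannot be assigned to either gene.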
